A study of Mus musculus with 13 samples.

Results

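The transcriptomes of WT microglia and WT astrocytes of the mouse spinal cord were compared gene by gene. The comparison rests on 3 libraries of each cell type, 6 of the 13 libraries of the series. It covers the 16128 genes with a mean of at least 1 FPKM over these 6 libraries, of 39171 genes in the table. FPKM are fragments per kilobase of transcript and per mapped fragments, a level scaled to the length of the transcript and the depth of the library. The animals were C57BL/6 mice with an intact Il33 gene, littermates of mice that lack Il33, the gene of the cytokine interleukin-33. Microglia were sorted by the surface protein CD11b at postnatal day 12. Astrocytes were sorted by green fluorescent protein from an Aldh1l1-GFP reporter, at day 12 for libraries 1 and 2 and at day 9 for library 3. CD11b is carried by other myeloid cells too, and the reporter marks cells in which the Aldh1l1 sequences of the transgene are active. The design text calls the libraries within a group biological replicates. Whether animals were pooled is not stated. Xist, a transcript of the inactive X chromosome, stood at 0.37, 32.9 and 4.1 FPKM in astrocyte libraries 1 to 3 and 268, 283 and 0.713 in microglia libraries 1 to 3. The Y-linked gene Eif2s3y stood at 8.98, 0.249 and 10.7 and 16.5, 14.4 and 51. Sex-linked transcripts thus differed within both groups, and the part of sex in the comparison was not tested. The 7 IL-33 KO libraries, 3 of microglia at day 12 and 4 of astrocytes of which library 2 was taken at day 9, served as a repeat of the same comparison in other samples.

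Microglia are the resident macrophages of the central nervous system. They descend from yolk sac progenitors, depend on signals through the receptor CSF1R, survey the tissue with motile processes guided in part by extracellular nucleotides, and engulf dying cells and synapses. Astrocytes arise from the neural tube. They clear glutamate, GABA and potassium from the extracellular space, couple through gap junctions, store glycogen, supply lipoproteins and cholesterol to neurons and secrete matrix and factors that act on synapses. In the spinal cord they keep Hox genes that record their position along the body axis.

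The libraries of a cell type resembled each other more than those of the other type. The Pearson correlation of log2(FPKM + 1) over genes was 0.863 to 0.889 between astrocyte libraries, 0.743 to 0.794 between microglia libraries and 0.291 to 0.408 across cell types. These are correlations across genes, which are not independent replicates. Read numbers were not analysed here. Depth relative to microglia library 1, as estimated from the spacing of low FPKM values, was 82.9% and 95.9% for the other microglia libraries and 40.3% to 65.1% for the astrocyte libraries. That spacing also carries any scaling between libraries, which is not stated, so these values need not be sequencing depth. The most abundant gene model took 11.6% to 38.9% of a library's summed FPKM, and protein-coding nuclear genes took 12.4% to 20.9% in astrocytes and 27.0% to 29.4% in microglia. An exact 0 in such a table can be a failed estimate, so a gene is then said to be listed at 0.

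Of the tested genes, 45.8% differed between the cell types. In microglia 4061 genes were higher, 25.2% of those tested, and in astrocytes 3331 genes, 20.7% (limma, Benjamini-Hochberg adjusted p under 0.05). These shares are the background for the counts of gene groups that follow. With quantile normalisation of the libraries the split turned, with 3056 genes (18.9%) higher in microglia and 4158 (25.8%) higher in astrocytes, so no cell type can be said to have more of the higher genes. The median difference over all genes, microglia minus astrocytes on the log2(FPKM + 1) scale, was 0.28, and −0.08 under quantile normalisation. A difference of at least 2 on this scale together with the test was met by 2440 genes (15.1%) higher in microglia and 1841 (11.4%) higher in astrocytes. For 9191 genes (57.0%) the 3 libraries of one cell type all lay above those of the other. Exons of Csf1r, Abi3, Sox8, Rarres2, Itgav, Il1a, Timp3, Nid2, Slc16a6, Ncf1, Rpe, Acsl5, Aldh1l1, Slc15a3, Txnip, Pla2g7, Ltc4s, Ccnd1 and Jun overlap a gene on the other strand, and since the strand of counting is not stated their values are uncertain. In bulk samples fewer cells of a type and less RNA per cell cannot be told apart.

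**Figure D1:**
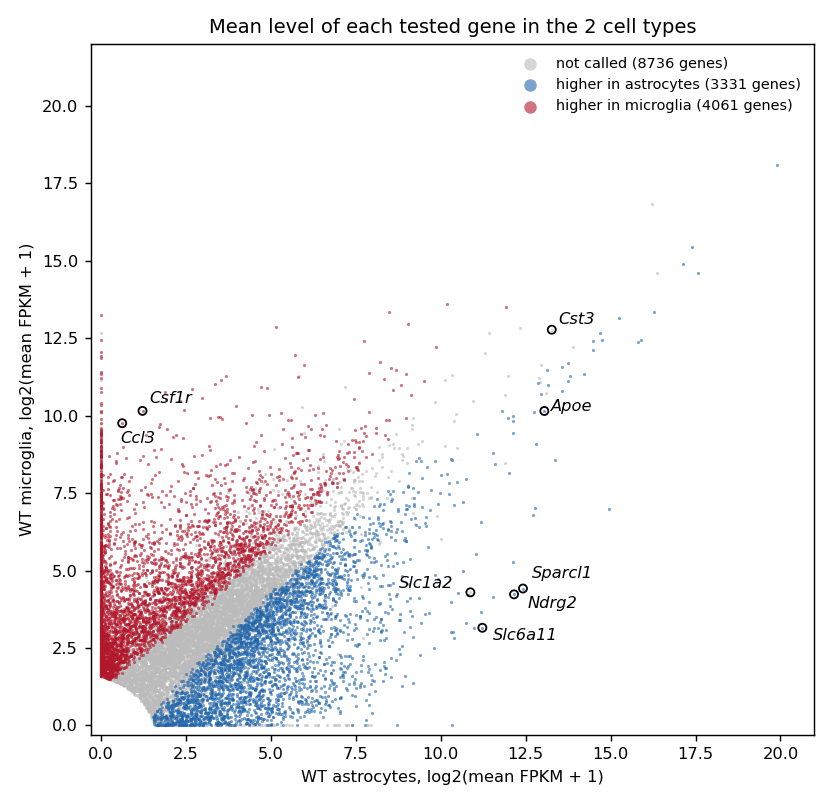
Mean level of each of the 16128 tested genes in WT astrocytes (horizontal axis) and WT microglia (vertical axis), both as log2(mean FPKM + 1), with 1 point per gene. Red points are the 4061 genes called higher in microglia, blue points the 3331 called higher in astrocytes and grey points the rest. Circles mark named genes, among them Cst3, which lies near the diagonal.

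The filter kept 11029 genes with a mean of at least 1 FPKM in both cell types, 3617 that reached it in microglia only and 1482 that reached it in astrocytes only. Just inside the threshold, Gpr3 stood at 0.921, 2.22 and 1.47 FPKM in astrocytes and 0.230, 0.352 and 0.810 in microglia. Just outside, Adam8 stood at 0.0338, 0 and 0.0205 in astrocytes and 3.66, 0.408 and 1.87 in microglia. Of the kept genes, 1626 were listed at 0 in all 3 astrocyte libraries and 138 in all 3 microglia libraries. A gene near 0 in one cell type passes this filter only through the other, so the direction of its difference is then set in advance. That limit holds for such members of every gene list and pair below.

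Markers of the labelled cell types matched the labels. All 8 microglial markers and 7 of 8 astrocyte markers were called in the labelled cells. The fractalkine receptor gene Cx3cr1 stood at 1.15, 2.2 and 1.2 FPKM in the astrocyte libraries and 579, 717 and 677 in the microglia libraries, and Tmem119, a microglial surface protein, at 1.49, 0.0488 and 0.467 and 559, 393 and 233. The highest astrocyte library lay more than 100 FPKM under the lowest microglia library for both genes. Aldh1l1, the folate enzyme whose promoter drives the reporter, stood at 91.7, 78.4 and 104 FPKM in astrocytes and 0.319, 0.0971 and 0.202 in microglia, and Itgam, which encodes CD11b, at 1.15, 11.7 and 0.0993 and 603, 648 and 604. Both genes define the sorts and check the labels only. The intermediate filament gene Gfap was at 323, 360 and 283 FPKM in astrocytes and 4.93, 8.53 and 3.89 in microglia (log2 difference −5.63, SE 0.31, adjusted p = 4.29e-05). The glutamate transporter gene Slc1a2 was listed at 0 in astrocyte library 1 and at 3996 and 1631 FPKM in libraries 2 and 3, against 18.8, 9.55 and 27.7 in microglia, and did not pass the test (log2 difference −3.36, SE 3.01, adjusted p = 0.381). With that 0 taken as missing, an alternative chosen after the data were seen, its difference was −7.14 (adjusted p = 0.000369). Leaving out astrocyte library 1 gave −7.14 as well (adjusted p = 0.00148).

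**Figure D2:**
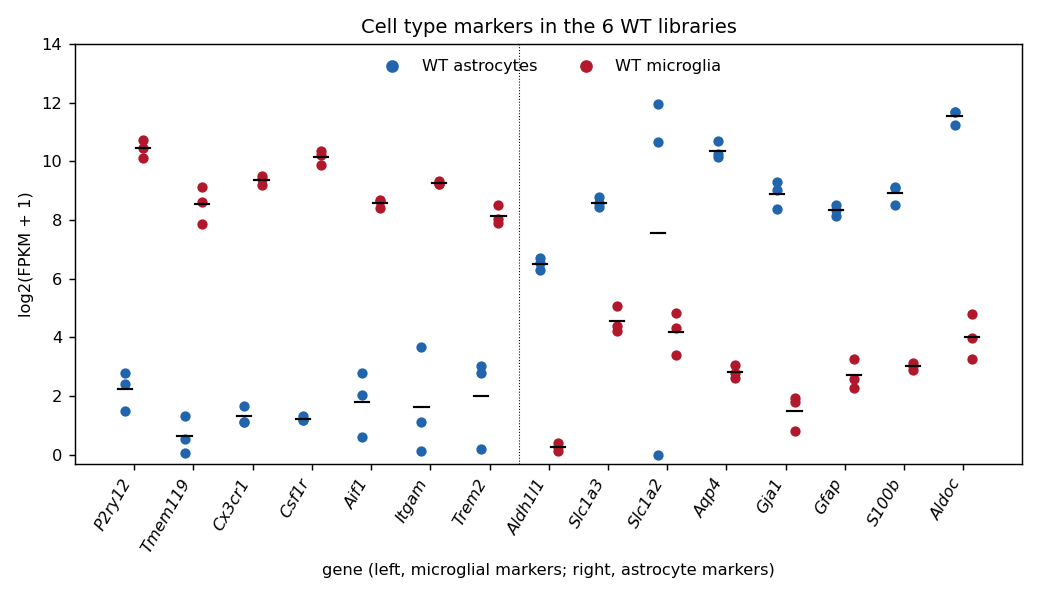
Level of 7 of the 8 microglial markers (left) and 8 astrocyte markers (right) as log2(FPKM + 1), with 1 point per library, blue for the 3 WT astrocyte libraries and red for the 3 WT microglia libraries, and a bar at the mean of each group. The groups are apart for every gene but Slc1a2, for which astrocyte library 1 is listed at 0.

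Among the 24 genes of a microglial identity list, 23 were higher in microglia, with a median difference of 7.51. The exception was Sparc, a secreted matrix-binding protein, at 5217, 4085 and 2822 FPKM in astrocytes and 2752, 2552 and 2233 in microglia (log2 difference −0.65, SE 0.30, adjusted p = 0.12), abundant in both cell types. Of 26 astrocyte identity genes, 25 were higher in astrocytes (median −6.31), the exception being Slc1a2. Their summed level was 5.02 to 6.15% of protein-coding nuclear FPKM in astrocytes and 0.0426 to 0.0651% in microglia.

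The largest differences toward microglia were in a chemokine, receptors and adaptors of myeloid cells, complement and a lysosomal protease. The chemokine gene Ccl3 (ENSMUSG00000000982, chromosome 11, 83647844 to 83649355, GRCm38) stood at 0.0636, 0.828 and 0.739 FPKM in the astrocyte libraries and 671, 811 and 1113 in the microglia libraries (log2 difference 9.14, SE 0.32, adjusted p = 1.57e-05). Tyrobp (ENSMUSG00000030579, chromosome 7, 30413760 to 30417585), the adaptor through which TREM2 signals, stood at 3.17, 0.658 and 4.17 and 2039, 1687 and 1449 (log2 difference 9.02, SE 0.45, adjusted p = 3.45e-05). In both genes all microglia libraries lay at least 100 times over any astrocyte library. Csf1r (ENSMUSG00000024621, chromosome 18, 61100598 to 61132149), the receptor that microglia need to survive, stood at 1.25, 1.27 and 1.49 FPKM in astrocytes and 1303, 1181 and 935 in microglia (log2 difference 8.92, SE 0.22, adjusted p = 1.2e-05). Fcer1g, the common chain of Fc receptors, was 519.8 times as high in mean FPKM in microglia (log2 difference 8.79). The same ratio was 2307 for the tetraspanin gene Cd37, 340.2 for the complement gene C1qb, 905 for the actin regulator gene Abi3 and 1120 for Cd180, a relative of the Toll-like receptors. It was 352 for the ADP receptor gene P2ry12 and 260.1 for the cathepsin gene Ctss. Gm11084, a predicted gene listed at 0 in the 3 astrocyte libraries, was at 179, 1377 and 556 FPKM in microglia, a spread of over 7 times between libraries.

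Lars2, the mitochondrial leucyl-tRNA synthetase gene, also met the rule for the largest differences, but its zeros do not follow the cell type. It was listed at 0 in all 3 WT astrocyte libraries and at 4353, 4924 and 2479 FPKM in WT microglia. In KO astrocytes it stood at 6962, 7015, 0 and 0 FPKM and in KO microglia at 0, 0 and 4197. The WT values are therefore given with no fold.

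The largest differences toward astrocytes included transporters, secreted proteins and a fatty acid-binding protein. Slc6a11 (ENSMUSG00000030307, chromosome 6, 114131241 to 114249952), the GABA transporter GAT-3, stood at 2174, 2559 and 2452 FPKM in the astrocyte libraries and 11.2, 7.66 and 4.87 in the microglia libraries (log2 difference −8.13, SE 0.31, adjusted p = 1.73e-05). Ndrg2 (ENSMUSG00000004558, chromosome 14, 51905271 to 51914158), an astrocyte gene of the NDRG family, stood at 4874, 4577 and 4261 and 25.1, 20.2 and 8.08 (log2 difference −8.06, SE 0.41, adjusted p = 3.66e-05). Neither gene had overlapping groups, and every astrocyte library stood at least 100 times over every microglia library. Sparcl1 (ENSMUSG00000029309, chromosome 5, 104079111 to 104113733), whose protein hevin promotes excitatory synapses, stood at 5403, 6460 and 4592 FPKM in astrocytes and 26, 19.7 and 15.6 in microglia (log2 difference −8.01, SE 0.27, adjusted p = 1.45e-05). The ratio of mean FPKM, astrocytes over microglia, was 371 for the junctional protein gene Tmem47, 258 for carboxypeptidase E, 322 for the sulfurtransferase gene Tst and 788 for Fxyd1, a regulator of the sodium pump. It was 181 for the glycolytic gene Aldoc, 216 for the water channel gene Aqp4, 198 for the fatty acid-binding protein gene Fabp7, 192 for the bicarbonate transporter gene Slc4a4 and 186 for the matrix proteoglycan gene Ncan.

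Promoters of the genes with a called difference of at least 2 were searched for 5 sequences on either strand, in RefSeq windows from 250 bases before to 50 bases after each start (GRCm38.p6). The PU.1 sequence GAGGAAGT, bound by the macrophage factor that Spi1 encodes, was in 95 of 1417 promoters of genes higher in microglia (6.7%), 38 of 1772 promoters of genes higher in astrocytes (2.14%) and 1052 of all 32851 promoters in the table (3.2%), with 3.05% for all tested protein-coding genes. The AP-1 sequence TGANTCA was in 7.06%, 4.74% and 7.81% of these sets (tested genes 5.03%), the TATA box TATAAA in 9.6%, 7.17% and 13.6% (7.23%) and the E-box CACGTG in 8.4%, 7.9% and 7.15% (9.54%). Each motif was counted separately, whether or not its match overlapped that of another. The palindromic motif of nuclear factor I was in 0, 1 and 12 promoters. The median number of CG pairs in the window was 13 for genes higher in microglia, 18 for genes higher in astrocytes, 20 for all tested genes and 7 for all promoters. Of 1421 such protein-coding genes higher in microglia 1090 had a promoter in the table, and of 1705 higher in astrocytes 1311. A match describes the letters of the window and is no measured binding site.

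Promoter stretches of 4 genes among the largest differences are shown as examples of these matches, a pair with the PU.1 sequence and a pair with the TATA box. They were chosen after the matches were seen. Each runs 5′ to 3′ on the gene's strand from 150 bases before the start, from RefSeq on GRCm38.p6, with the matched letters in capitals. In Cd37 and Ctss the match is the reverse complement of the PU.1 sequence, in Ndrg2 and Ncan that of the TATA box.
Cd37 (chr7:45238840-45238989, minus strand): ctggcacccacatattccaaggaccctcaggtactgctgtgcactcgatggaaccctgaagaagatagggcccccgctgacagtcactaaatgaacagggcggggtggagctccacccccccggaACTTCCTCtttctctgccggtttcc
Ctss (chr3:95526636-95526791, plus strand): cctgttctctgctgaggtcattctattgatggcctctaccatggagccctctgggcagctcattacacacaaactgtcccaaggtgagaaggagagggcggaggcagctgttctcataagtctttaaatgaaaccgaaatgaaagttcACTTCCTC
Ndrg2 (chr14:51914005-51914154, minus strand): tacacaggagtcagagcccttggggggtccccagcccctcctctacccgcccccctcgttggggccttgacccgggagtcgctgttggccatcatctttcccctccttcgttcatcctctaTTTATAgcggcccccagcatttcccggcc
Ncan (chr8:70120845-70120994, minus strand): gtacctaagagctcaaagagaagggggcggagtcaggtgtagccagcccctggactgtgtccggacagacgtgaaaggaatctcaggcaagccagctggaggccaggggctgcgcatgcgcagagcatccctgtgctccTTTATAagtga
In Cd37 the capitals begin 25 bases before the start, and in Ctss they begin 2 bases before it and run 6 bases past it. In Ndrg2 they begin 29 bases before the start and in Ncan 11 bases before it. Of the 3 Ndrg2 promoters 1 held the TATA box. Among other genes with the largest differences, the promoters of Ccl3, Fcer1g, C1qb, Cd180 and P2ry12 lacked the PU.1 sequence. Those of Slc6a11, Tmem47, Aldoc, Fabp7 and Slc4a4 lacked the TATA box, while that of Fxyd1 held it.

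The most abundant protein-coding transcripts, with mitochondrially encoded and ribosomal protein genes left out, were partly shared. Cst3, the protease inhibitor cystatin C, stood at 9384, 9921 and 10310 FPKM in the astrocyte libraries and 8403, 6840 and 5809 in the microglia libraries, and did not pass the test (log2 difference −0.51, SE 0.26, adjusted p = 0.153). Apoe, the main lipoprotein of the brain, stood at 8241, 8565 and 8649 FPKM in astrocytes and 1490, 1214 and 709 in microglia (log2 difference −2.96, SE 0.33, adjusted p = 0.000651), so that it was high in both while 7.46 times as high in astrocytes. Among the next most abundant in microglia were B2m, Ctsd, Tmsb4x and Actb beside the predicted genes Gm17604 and Gm11032, while astrocytes had Dbi, Sparcl1, Ndrg2, Atp5b, Atp1b2 and Ckb. B2m, the invariant chain of MHC class I, was at 371, 559.7 and 312 FPKM in astrocytes and 2476, 2848 and 3156 in microglia. Dbi, which binds acyl-CoA esters, was at 5460, 6050 and 9339 and 159.9, 113 and 112. Both genes were called (differences 2.8 and −5.73). Actb, the cytoplasmic actin gene often used as a reference, was at 989.5, 1074 and 1825 FPKM in astrocytes and 3227, 2553 and 1909 in microglia and missed the threshold (adjusted p = 0.051).

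Transcription factors of each lineage were called almost without exception in that lineage. All 20 listed microglial factors were higher in microglia (median 3.96), and 19 of 22 tested astrocyte factors of 24 listed were higher in astrocytes (median −3.68). Spi1, which encodes PU.1, stood at 0.187, 0.182 and 0 FPKM in astrocytes and 199, 180.5 and 150.2 in microglia (log2 difference 7.3, SE 0.24, adjusted p = 1.45e-05), and Ikzf1, a lymphoid and myeloid zinc finger factor, at 0.403, 1.71 and 0.0141 and 181, 193 and 179. For both genes no astrocyte library reached 2 FPKM. Zeb2 and Mef2a were only graded, at 48.9 and 206 FPKM (difference 2.06) and 21.6 and 154 FPKM (2.91) in astrocytes and microglia. On the astrocyte side the nuclear factor I genes Nfix (712, 842 and 817 FPKM in astrocytes, 54.2, 57.2 and 47.9 in microglia, log2 difference −3.87, adjusted p = 3.78e-05) and Nfia (489 and 66 on average, log2 difference −2.91, adjusted p = 0.000509) led by level, with Zbtb20 (−2.09), Sox8 (−2.73) and the inhibitor of differentiation Id3 (−5.71). Nfix and Nfia were far from absent in microglia, whereas Id3 had a mean of 2.11 FPKM there.

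Hox genes were called toward astrocytes. Of 27 listed, 23 passed the filter and 19 were higher in astrocytes, none in microglia (median −2.45). Their summed level was 319 to 430.2 FPKM in astrocytes and 12.3 to 13.1 in microglia. Hoxc8 (ENSMUSG00000001657, chromosome 15, 102990607 to 102994111), which patterns the thoracic cord, stood at 64.3, 70.3 and 120.4 FPKM in astrocytes and 0.11, 1.22 and 0.684 in microglia (log2 difference −5.68, SE 0.38, adjusted p = 9.26e-05). Hoxa7, Hoxc6, Hoxd8 and Hoxb6 had mean levels of 52, 36.6, 34.8 and 29.3 FPKM in astrocytes and 1.68, 0.355, 0.826 and 0.637 in microglia.

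Receptors for danger signals, nucleotides, chemokines and cytokines lay mainly on microglia, and receptors for growth factors and transmitters mainly on astrocytes. All 22 tested Fc, TREM and Siglec receptors were higher in microglia, as were 17 of 19 Toll-like and other pattern receptors, 10 of 13 chemokine and chemoattractant receptors and 20 of 28 cytokine receptors. Of these lists only the cytokine receptors had members higher in astrocytes (3). In contrast 17 of 26 growth factor receptors, 14 of 26 receptors of the Notch, Wnt, BMP and hedgehog pathways and 20 of 29 neurotransmitter receptors were higher in astrocytes, against 1, 1 and 2 higher in microglia. The microglial member of the Notch and Wnt list, Lrp5, lost its call when any of 5 libraries was left out. The Fc, TREM and Siglec list had medians of 0.0586 to 0.152 FPKM in the astrocyte libraries. Those of the Toll-like and pattern receptor list were 0.26 to 0.434 and those of the chemoattractant receptor list 0.0314 to 0.0429. Members of these lists near 0 in astrocytes passed the filter only through microglia, which sets their direction. The limit applies in reverse to members of the astrocyte-side lists near 0 in microglia.

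Purinergic receptors were called in full, 8 of 11 tested higher in microglia and 3 in astrocytes. P2ry12, which draws microglial processes to ADP, stood at 4.33, 5.85 and 1.84 FPKM in astrocytes and 1113, 1419 and 1705 in microglia. P2ry13 and P2ry6, receptors for ADP and UDP, had means of 2.05 and 0.0487 FPKM in astrocytes and 407 and 127 in microglia, and Gpr34, a lysophosphatidylserine receptor, 0.474 and 216. P2rx7, the ATP-gated channel, was graded, at 4.02, 14.3 and 4.84 FPKM in astrocytes and 99.3, 79.8 and 64.3 in microglia (log2 difference 3.4, adjusted p = 0.00163). The 3 astrocyte members were the adenosine receptors Adora1 (68.3, 73.2 and 36.4 and 1.48, 1.26 and 2.1 FPKM, log2 difference −4.48, adjusted p = 0.000155) and Adora2b (−3.35) and the ADP receptor P2ry1 (−3.62). Receptors for the same nucleotide, ADP, thus stood on both cell types under different genes.

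Among chemoattractant receptors C3ar1, the receptor for complement fragment C3a, was 197 times as high in microglia as in astrocytes in mean FPKM. Cmklr1, the chemerin receptor, was present in astrocytes too, at 18.1, 17.4 and 17.1 FPKM against 158, 154 and 88 in microglia (log2 difference 2.81, adjusted p = 0.000489). Of the nucleic acid sensors, Tlr7 stood at 0.337, 3.67 and 0.132 FPKM in astrocytes and 339.6, 384 and 529.5 in microglia, Tlr13 at 0.0246, 0.0121 and 0 and 139, 155 and 151, and the DNA sensor gene Aim2 at 0.531, 0.39 and 0.368 and 183, 202 and 188. The lipopolysaccharide receptor Tlr4 was lower, with means of 0.82 and 77.2 FPKM. No astrocyte library reached 4 FPKM for any of these 4 genes. Siglech, a sialic acid-binding receptor of microglia, was 999.9 times as high in microglia, while Sirpa, which binds the don't-eat-me signal CD47, was at 63.4, 136 and 58.8 FPKM in astrocytes and 864, 633 and 484 in microglia (log2 difference 3.00, adjusted p = 0.00147).

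Among cytokine receptors Csf3r and Tgfbr1 were 511 and 61.4 times as high in microglia, and Ifngr1, a chain of the interferon gamma receptor, 12.4 times. The 3 members higher in astrocytes all bind cytokines of the interleukin-6 family. Cntfr, the ciliary neurotrophic factor receptor, stood at 289, 249 and 159 FPKM in astrocytes and 5.67, 2.11 and 0.545 in microglia (log2 difference −6.16, adjusted p = 0.000293), Lifr at 42.3, 35.3 and 36.6 and 14.3, 13.6 and 10.8 (log2 difference −1.5, adjusted p = 0.00253) and Osmr at 3.69, 4.07 and 4.97 and 0.166, 0.166 and 0.419 (log2 difference −2.07, adjusted p = 0.00298). Their groups did not overlap. Of the growth factor receptors Ednrb, the endothelin B receptor, was at 305, 402 and 384 FPKM in astrocytes and 12.7, 20.1 and 7.28 in microglia, and Ntrk2 and Fgfr3 were 104 and 105 times as high in astrocytes. Mertk, a receptor for phosphatidylserine bridges, was the member higher in microglia (19.3, 28.2 and 10.5 and 128, 129 and 125 FPKM, log2 difference 2.76, adjusted p = 0.00138). The hedgehog receptor Ptch1 was at 129.6 FPKM in astrocytes and 2.65 in microglia on average and the Wnt receptor Fzd1 at 54.2 and 0.711, while Bmpr2 did not pass the test (81.1, 116 and 78.4 and 74.3, 57.7 and 56 FPKM, adjusted p = 0.131).

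The transmitter receptors of astrocytes were led by GABA, neurotensin and glutamate receptors. Ntsr2 stood at 384, 354 and 252 FPKM in astrocytes and 5.26, 0.934 and 1.57 in microglia (log2 difference −6.7, SE 0.47, adjusted p = 0.000108), and Gabbr2, a chain of the GABA-B receptor, at 154, 138 and 123 and 3.36, 0.836 and 0.884. The partner chain Gabbr1 was high in both, at 332, 409 and 369 FPKM in astrocytes and 36.7, 71.8 and 152 in microglia (log2 difference −2.3, SE 0.50, adjusted p = 0.0104), a call lost without microglia library 2 (−2.28, adjusted p = 0.0505). Gria4, an AMPA receptor chain, was 45 times and Gabrg1, a GABA-A receptor chain, 405 times as high in astrocytes. One of the members higher in microglia was the cannabinoid receptor Cnr2 (1.81, adjusted p = 0.00864), whose call was lost under quantile normalisation.

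**Figure D3:**
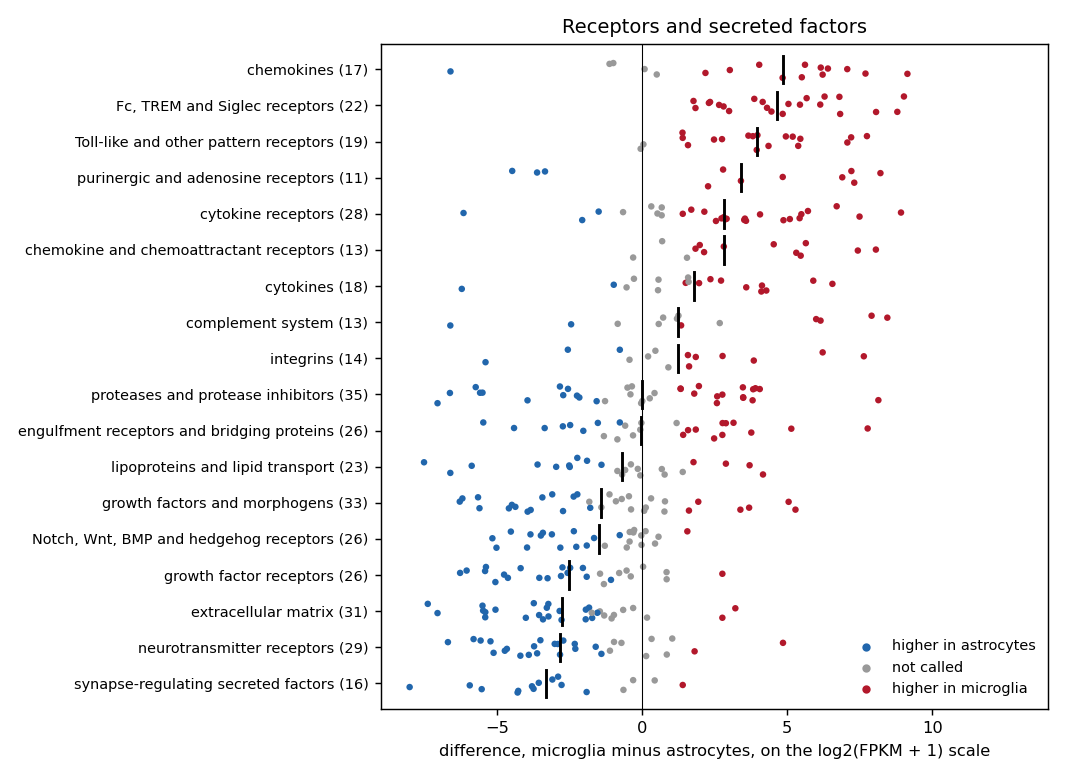
Difference of each tested member of 18 lists of receptors and secreted factors, microglia minus astrocytes on the log2(FPKM + 1) scale, with 1 point per gene and the number of members in brackets. Red points were called higher in microglia, blue points higher in astrocytes and grey points neither, and the black bar is the list's median, from 4.84 for chemokines to −3.33 for synapse-regulating secreted factors.

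Among secreted factors, chemokines and cytokines lay on the microglial side and growth factors, matrix and synapse-regulating factors on the astrocyte side. Over all listed members, medians in the astrocyte libraries were 0 to 0.253 FPKM for chemokines and 0 to 0.0508 for cytokines. Members near 0 there passed the filter only through microglia, which sets their direction. Of 17 tested chemokines 12 were higher in microglia and 1 in astrocytes. Ccl4 stood at 0.279, 0.0981 and 0.0648 FPKM in astrocytes and 134, 246 and 397 in microglia, and Ccl12 at 0, 0.522 and 1.15 and 174, 176 and 252. The astrocyte member was Cxcl14, at 138, 164 and 85.2 and 0.108, 0.669 and 0.164 FPKM (log2 difference −6.61, SE 0.34, adjusted p = 3.72e-05). Of 18 cytokines, 10 were higher in microglia and 2 in astrocytes, of which Mif lost its call when any of 5 libraries was left out. Tnf was at 0.054, 0.153 and 0.0493 FPKM in astrocytes and 91.8, 43 and 65 in microglia (log2 difference 5.9, adjusted p = 4.98e-05), Il1a at 0.372, 0.331 and 0.199 and 129.9, 84.6 and 161 (log2 difference 6.55, adjusted p = 3.01e-05) and Csf1, the ligand of CSF1R, at 13.3, 6.89 and 14.3 and 40.5, 40.2 and 58.7 (log2 difference 1.96, adjusted p = 0.00442). All microglia libraries exceeded all astrocyte libraries for these 3 genes. Il33 (ENSMUSG00000024810, chromosome 19, 29925114 to 29960718) was the cytokine of astrocytes, at 96.3, 113 and 108 FPKM and 0.299, 0 and 1.26 in microglia (log2 difference −6.22, SE 0.35, adjusted p = 4.88e-05).

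Complement divided by component. C1qa, C1qb and C1qc, which start the classical pathway, had means of 346, 1844 and 2102 FPKM in microglia and 4.23, 5.42 and 9.33 in astrocytes. The 2 members higher in astrocytes were clusterin, Clu, a chaperone that also blocks the terminal complex (443, 479 and 479 and 10.9, 1.94 and 2.12 FPKM, log2 difference −6.61, SE 0.55, adjusted p = 0.000211), and the lectin pathway protease Masp1 (−2.45). In all 5 of 13 tested members were higher in microglia.

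Of 33 growth factors and morphogens 15 were higher in astrocytes and 6 in microglia. Pleiotrophin, Ptn, stood at 1182, 1140 and 2025 FPKM in astrocytes and 25.4, 19.7 and 9.52 in microglia (log2 difference −6.29, adjusted p = 8.78e-05), Wnt7a at 181, 179 and 119 and 8.9, 0 and 0.0088 (log2 difference −6.2, adjusted p = 0.00213), and Mdk and Fgf1 were 33.5 and 88.1 times as high in astrocytes in mean FPKM. On the microglial side Tgfb1, which microglia need to keep their identity, stood at 0.972, 0.563 and 1.46 FPKM in astrocytes and 99.5, 86.5 and 49.9 in microglia (log2 difference 5.28, adjusted p = 8.77e-05), and Igf1, a trophic factor for neurons and oligodendrocytes, at 0.024, 0.0669 and 0.0171 and 65.1, 29.6 and 18.8 (log2 difference 5.05, adjusted p = 0.000324). Igf1 varied more than 3 times between microglia libraries, the highest being library 1. The transcripts of synapse-regulating factors were higher in astrocytes for 12 of 16 tested, among them the glypican gene Gpc5 (80.3 and 0.75 FPKM on average) and Lgi1 (−3.74). Of 31 extracellular matrix genes, 21 were higher in astrocytes and 2 in microglia. The matrix proteoglycan gene Bcan was at 355, 371 and 285 FPKM in astrocytes and 11.6, 6.72 and 4.1 in microglia. The 2 members higher in microglia were the basement membrane gene Nid2 (3.21) and Timp2, at 11.4, 12.2 and 12.9 and 132, 85.8 and 60.7 FPKM (log2 difference 2.76, adjusted p = 0.000821).

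Tissue inhibitors of metalloproteinases were thus unlike each other. Timp4, at 257, 212 and 199.5 FPKM in astrocytes and 0.204, 1.61 and 0.498 in microglia (log2 difference −7.05, adjusted p = 3.3e-05), and Timp3 (−5.5) were higher in astrocytes and Timp2 in microglia. Proteases and their inhibitors as a list went both ways, 15 higher in microglia and 12 in astrocytes of 35, with a median of 0.00 that became −0.50 under quantile normalisation. The serine protease gene Htra1 was 162 times and the inhibitor gene Serpine2 6.62 times as high in astrocytes, and cathepsin D, Ctsd, 11.5 times as high in microglia. Ctsl, cathepsin L, did not pass the test (197, 209 and 165 and 285, 279 and 206 FPKM, adjusted p = 0.178).

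Engulfment genes also split, 11 of 26 higher in microglia and 8 in astrocytes, with a median of −0.05 that ran from −0.32 to 0.21 over the alternatives. Stab1, a scavenger receptor that is also on the list of border macrophage markers, stood at 2.02, 0.866 and 5.76 FPKM in astrocytes and 1082, 587 and 621 in microglia. Itgb5, a chain of the integrin that binds Mfge8, stood at 54.3, 31.7 and 23.7 and 271, 260 and 199 (log2 difference 2.77, adjusted p = 0.00109), and the phosphatidylserine receptor gene Adgrb1 at 142, 169.9 and 136 and 4.48, 1.21 and 2.13 (log2 difference −5.48, adjusted p = 9.29e-05). Lrp1, an endocytic receptor, overlapped between the cell types (324, 173 and 239 and 147, 236 and 114 FPKM, adjusted p = 0.233). Of 14 integrins 7 were higher in microglia and 3 in astrocytes. The astrocyte members were Itgb8, which activates latent TGF-beta (77.9, 85.9 and 50.1 and 0.814, 0.421 and 0.811 FPKM, log2 difference −5.4, adjusted p = 4.59e-05), Itga7 (−2.56) and, weakly, Itgav (−0.77, adjusted p = 0.0271). The call of Itgav was lost without astrocyte library 1 (−0.70, adjusted p = 0.0686), without library 2 (−0.71, adjusted p = 0.0558) under 2 other scalings and with the replicate block. Itgb1 did not pass the test (56.5, 42.6 and 55 and 60.5, 60.5 and 55.7 FPKM, adjusted p = 0.459).

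Of 66 known ligand and receptor pairs, 6 had the ligand called higher in astrocytes and the receptor in microglia, and 5 the reverse. In 9 pairs both members were higher in astrocytes and in 10 both in microglia. In 24 pairs at least 1 member was not called, and 12 pairs had a member under the filter. Pairs from astrocyte ligand to microglial receptor, with both differences at least 1, were Clu and Apoe with Trem2, Il33 with Il1rl1, Cd200 with Cd200r1, Rarres2 with Cmklr1 and Mfge8 with Itgb5. The Il33 receptor gene Il1rl1 stood at 0.0268, 0.0295 and 0.097 FPKM in astrocytes and 6.95, 9.2 and 5.08 in microglia (log2 difference 2.91, adjusted p = 0.000845). Cd200, a ligand that restrains myeloid cells, stood at 21.7, 55.4 and 29.9 and 0.0172, 2.5 and 0.365 (log2 difference −4.33, adjusted p = 0.00138), and its receptor gene Cd200r1 at 0.0567, 0 and 0 and 5.1, 5.63 and 7.91 (log2 difference 2.81, adjusted p = 0.000861). Each of these pairs had no overlap between the groups at either end, which was also so for 57.0% of all tested genes. Both receptor genes were near 0 in astrocytes and passed the filter only through microglia, which sets their direction. Rarres2, the gene of the chemerin that binds CMKLR1, was at 15.5, 21.4 and 11.2 FPKM in astrocytes and 0.576, 1.58 and 0.0929 in microglia, and Mfge8, which bridges dying cells to integrins, at 20.03, 46.8 and 89 and 6.63, 6.69 and 4.25 (log2 difference −2.73, adjusted p = 0.00735).

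In the opposite direction 4 of the 5 pairs had both differences at least 1, namely Sema4d with Plxnb1, Osm with Osmr, Pdgfb with Pdgfrb and Gas6 with Axl. Osm, oncostatin M, was listed at 0 in the 3 astrocyte libraries and stood at 17.2, 19.8 and 18.3 FPKM in microglia (log2 difference 4.28, adjusted p = 6.4e-05). The plexin gene Plxnb1 stood at 87.4, 79.4 and 73.2 FPKM in astrocytes and 2.06, 0.697 and 2.42 in microglia, with its ligand gene Sema4d at 16.2, 6.5 and 21.6 and 56, 58 and 57.3 (log2 difference 2.03, adjusted p = 0.00921). Pdgfrb is also a marker of mural cells and was low, at 2.75, 3.14 and 4.21 FPKM in astrocytes and 0.031, 0.0884 and 0.0289 in microglia. The phosphatidylserine receptor gene Axl stood at 100.2, 168 and 129 and 51.9, 14.4 and 14.7 (log2 difference −2.48, adjusted p = 0.00979) and its ligand gene Gas6 at 27.7, 25 and 14.4 and 56.2, 67.7 and 54.3 (log2 difference 1.41, adjusted p = 0.0099). Without microglia library 3 the difference of Axl was −2.19 and missed the threshold (adjusted p = 0.0509). Transcript levels at both ends say nothing of contact or signalling.

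**Figure D4:**
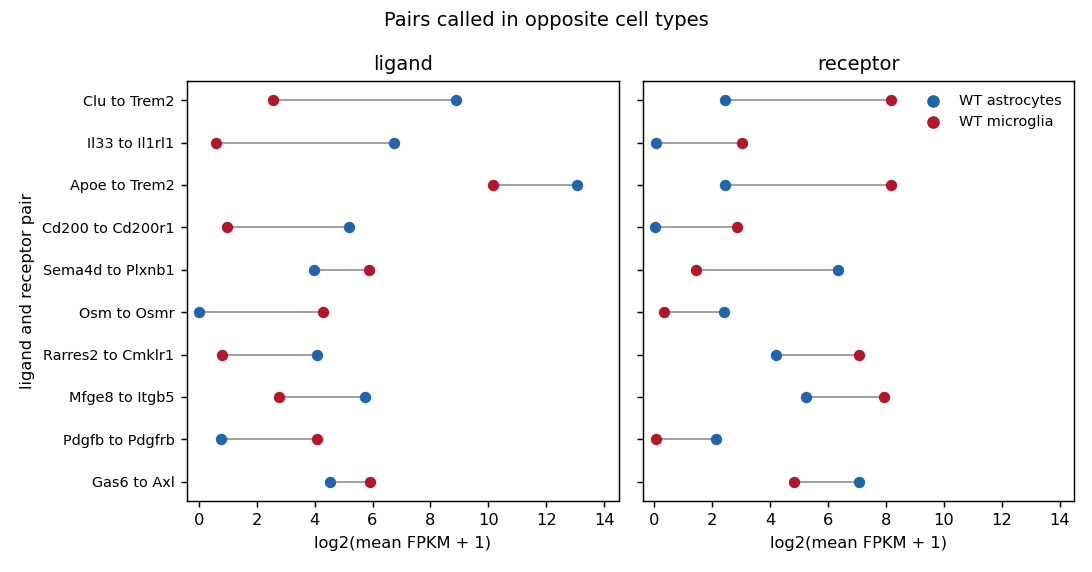
Mean level of the ligand (left) and the receptor (right) of the 10 pairs called in opposite cell types, as log2(mean FPKM + 1), blue for WT astrocytes and red for WT microglia, joined by a grey line. In each row the order of the colours on the left is the reverse of that on the right.

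Lipoproteins and lipid transport were higher in astrocytes for 10 of 23 tested genes and in microglia for 4. Apoc1 stood beside Apoe, at 387, 610.1 and 414 FPKM in astrocytes and 52.6, 32.6 and 29.3 in microglia (log2 difference −3.61, adjusted p = 0.000253). The sterol exporter gene Abcg1 (1.16, 0.0153 and 0.772 and 24, 26.1 and 31.9 FPKM, log2 difference 4.16, adjusted p = 0.00024) and the lipoprotein lipase gene Lpl (1.03, 0.898 and 1.02 and 17.1, 24.7 and 35.9 FPKM, log2 difference 3.7, adjusted p = 0.000269) were higher in microglia.

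All 61 tested nuclear genes of oxidative phosphorylation were higher in astrocytes, against 20.7% of all genes. Their differences spanned −3.6 to −1.12 with a median of −2.28. The 29 genes of complex I had a median of −2.18, the 6 of complex III −2.25, the 10 of complex IV −2.52 and the 15 of ATP synthase −2.3. The list took 5.15 to 5.9% of protein-coding nuclear FPKM in astrocytes and 1.17 to 1.36% in microglia. Atp5b, a catalytic chain of ATP synthase, stood at 4970, 4602 and 3961 FPKM in astrocytes and 734, 649 and 697 in microglia (log2 difference −2.7, SE 0.22, adjusted p = 0.000179), Cox6a1 of complex IV at 1480, 1517 and 1256 and 243, 219.7 and 229.8 and Cox7b at 1189, 1285 and 1199 and 248, 206 and 221. The counts stayed between 59 and 61 over the alternatives with the same filter, and in KO libraries all 61 were higher in astrocytes as well. The 13 mitochondrially encoded genes had 10 called higher in astrocytes, with a median of −1.93, while their sum ran from 110400 to 442900 FPKM between astrocyte libraries and from 52910 to 84550 between microglia libraries. That count fell to 0 without astrocyte library 1, to 2 without astrocyte library 2 and to 0 without any one of the 3 microglia libraries.

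**Figure D5:**
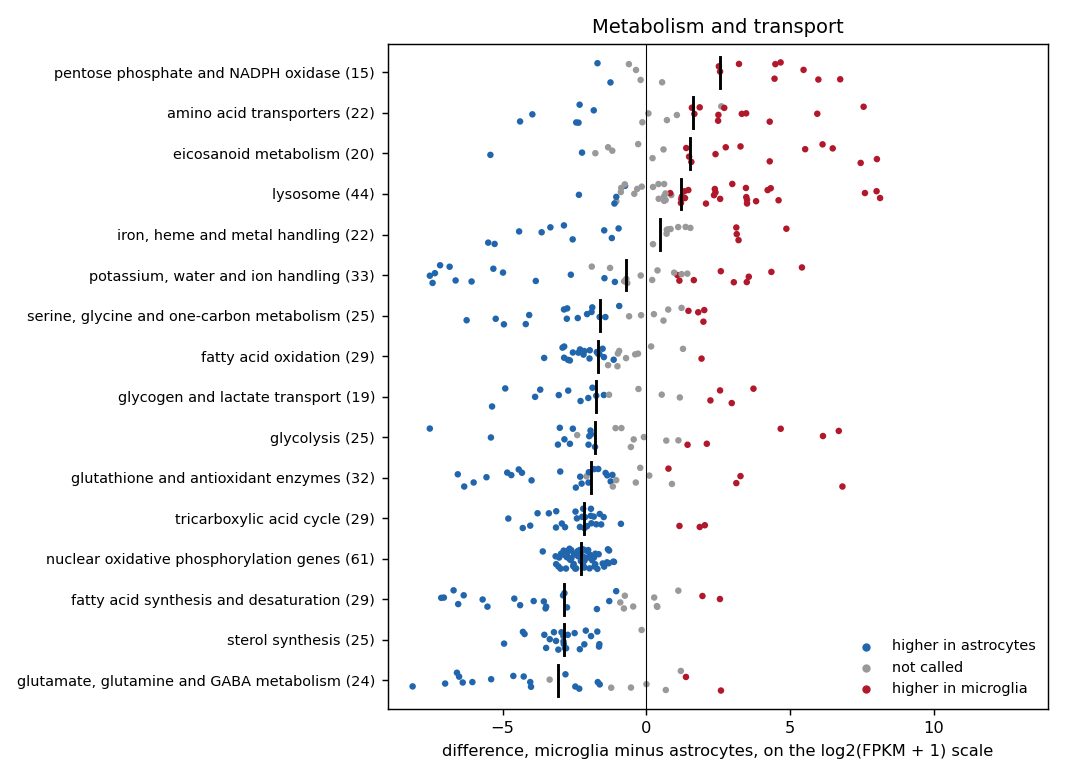
Difference of each tested member of 16 lists of metabolism and transport, microglia minus astrocytes on the log2(FPKM + 1) scale, with 1 point per gene and the number of members in brackets. Red points were called higher in microglia, blue points higher in astrocytes and grey points neither, the black bar is the list's median, and all 61 oxidative phosphorylation genes are blue.

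In the tricarboxylic acid cycle and its entry 26 of 29 genes were higher in astrocytes. Citrate synthase, Cs, stood at 288, 341 and 259 FPKM in astrocytes and 23.6, 28.9 and 12.4 in microglia (log2 difference −3.78, adjusted p = 0.000298) and Mdh2 at 405 and 46.8 on average. The pyruvate dehydrogenase kinases, which shut the entry of pyruvate, divided by isoform. Pdk2 was at 316, 455 and 304 FPKM in astrocytes and 25.1, 17.2 and 11.2 in microglia (log2 difference −4.3, adjusted p = 0.000179), while Pdk1 was at 9.41, 5.38 and 3.62 and 19.3, 28.9 and 34.2 (log2 difference 2.04, adjusted p = 0.00639). Idh2 and Pdk3, the other members higher in microglia, both lost their calls without astrocyte library 1 or microglia library 1 or 2.

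Glycolysis genes were called in both directions. Of 25 tested, 12 were higher in astrocytes and 5 in microglia (median −1.78). Gapdh stood at 1633, 1727 and 1746 FPKM in astrocytes and 358, 217 and 168 in microglia (log2 difference −2.85, adjusted p = 0.000672), Eno1 at 501 and 60.7 on average, and Aldoa and Ldhb were 3.95 and 3.85 times as high in astrocytes. The members higher in microglia were Hk2, Hk3, Slc2a5, Pfkfb3 and Pgam2. Hexokinase 2, Hk2, stood at 6.17, 0.395 and 0.803 FPKM in astrocytes and 198, 227 and 142 in microglia (log2 difference 6.15, adjusted p = 0.000496), the fructose transporter gene Slc2a5 at 0.0549, 0 and 0.165 and 101, 136 and 98.4 (log2 difference 6.7, adjusted p = 1.73e-05) and Pfkfb3, which makes the activator of phosphofructokinase, at 35.5, 37.3 and 21.2 and 122, 177 and 112 (log2 difference 2.11, adjusted p = 0.00235). Of 19 genes of glycogen metabolism and lactate transport 11 were higher in astrocytes and 4 in microglia, with the phosphorylase genes Pygm at 403, 336 and 173 FPKM in astrocytes and 4.92, 6.82 and 17.9 in microglia (log2 difference −4.91, adjusted p = 0.0006) and Pygb at 147 and 10.6 on average. The monocarboxylate transporter genes Slc16a6, Slc16a7 and Slc16a10 were higher in microglia (differences 3.73, 2.23 and 2.98).

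The pentose phosphate and NADPH oxidase list leaned to microglia, with 9 of 15 higher there and 2 in astrocytes. Cyba, the membrane chain of the phagocyte oxidase, was at 1.69, 0.0922 and 0.364 FPKM in astrocytes and 126, 107 and 74.3 in microglia (log2 difference 5.99, adjusted p = 0.000102), and its cytosolic partner Ncf1 was 479.6 times as high in microglia. Of the pentose phosphate enzymes themselves, Tkt (−1.7) and Rpe (−1.25) were higher in astrocytes and Pgd did not pass the test (0.55, adjusted p = 0.0792).

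Lipid synthesis genes were mostly called toward astrocytes. Of 25 sterol synthesis genes 24 were higher there, none in microglia (median −2.87), as were 19 of 29 genes of fatty acid synthesis and desaturation against 2, and 19 of 29 of fatty acid oxidation against 1. Hmgcs1, which makes the precursor of sterols, stood at 269, 282 and 334 FPKM in astrocytes and 16, 18 and 9.57 in microglia (log2 difference −4.29, SE 0.29, adjusted p = 8.8e-05), Cyp51 at 269, 244 and 373 and 10.4, 12.8 and 4.31 (log2 difference −4.95, adjusted p = 0.000202) and squalene epoxidase, Sqle, at 115, 127 and 107 and 9.34, 10.7 and 11.3 (log2 difference −3.36, adjusted p = 6.99e-05). Each of these groups was apart by at least 5 times. The desaturase genes Scd2 and Fads2 had means of 1599 and 677 FPKM in astrocytes and 30.4 and 3.79 in microglia. Both members of fatty acid synthesis that were higher in microglia are acyl-CoA synthetases, Acsl5 (2.56) and Acsl4 (1.96), whereas Acsl6 (−6.71) and Acsbg1 (−7.04) were higher in astrocytes. In fatty acid oxidation Hadha was 3.12 times as high in astrocytes, and Acad10 was higher in microglia (1.93).

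Glutamate and GABA handling set the cell types apart with a median of −3.09, 16 of 24 genes being higher in astrocytes and 2 in microglia. Glutamate dehydrogenase, Glud1, stood at 2484, 1891 and 2672 FPKM in astrocytes and 99.3, 92.6 and 87.7 in microglia (log2 difference −4.63, SE 0.22, adjusted p = 3.28e-05), and glutamine synthetase, Glul, at 1329, 1490 and 976 and 459, 389 and 323 (log2 difference −1.69, SE 0.26, adjusted p = 0.00281), high in both. The glutamine transporter gene Slc38a2 was 2.76 times as high in microglia. Serine, glycine and one-carbon genes were higher in astrocytes for 15 of 25, led by Ahcyl1 (962 and 25.4 FPKM) and Gcsh of the glycine cleavage system (130.1 and 7.29 FPKM). The 4 members higher in microglia fell to 1 without microglia library 2 or 3 and to 2 without astrocyte library 2. Amino acid transporters went both ways, 11 of 22 higher in microglia and 6 in astrocytes, and the first count fell to 7 without microglia library 3. Slc15a3, a lysosomal peptide and histidine transporter gene, was 850.2 times as high in microglia and Slc3a2 3.59 times as high in astrocytes.

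Antioxidant enzymes were mostly astrocytic, 21 of 32 against 4 in microglia. Gstm1 had means of 550.5 and 8.14 FPKM in astrocytes and microglia, and the peroxidase gene Gpx4 was at 392, 309 and 344 and 128, 64.9 and 40.3 (log2 difference −2.3, adjusted p = 0.00564), whereas its relative Gpx1 was at 12.4, 29.6 and 18.4 and 241, 215 and 139 (log2 difference 3.28, adjusted p = 0.000817). Txnip, which binds thioredoxin, stood at 3.65, 13.2 and 7.96 FPKM in astrocytes and 795, 951 and 1146 in microglia (log2 difference 6.83, adjusted p = 7.12e-05). Metal handling was mixed, 10 of 22 higher in astrocytes and 4 in microglia. The metallothionein genes Mt1 and Mt2 were 10.9 and 46.4 times as high in astrocytes, heme oxygenase, Hmox1, 8.77 times and the iron transporter gene Slc11a1 69.8 times as high in microglia. The potassium channel gene Kcnj10 was at 1514, 1715 and 583 FPKM in astrocytes and 8.77, 7.82 and 4.83 in microglia (log2 difference −7.18, adjusted p = 7.96e-05) and the sodium pump gene Atp1b2 119.7 times as high in astrocytes. Microglia had other members of the ion list, Kcnk6 (5.42) and Clic1 (3.5). The connexin genes Gja1 and Gjb6 were at 521, 623 and 328 and 179, 175 and 57.5 FPKM in astrocytes and at most 2.79 in microglia.

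Eicosanoid enzymes were higher in microglia for 12 of 20 tested genes and in astrocytes for 2. One of these 2, Ptges2, lost its call without astrocyte library 2 or 3 or any one microglia library. It kept the call in 9 of 17 alternatives. Ptgs1, cyclooxygenase 1, stood at 1.65, 2.6 and 2.46 FPKM in astrocytes and 356, 259.8 and 257 in microglia (log2 difference 6.49, adjusted p = 1.89e-05), the prostaglandin D synthase gene Hpgds at 0.12, 1.21 and 0.526 and 247, 244 and 341 (log2 difference 7.46, adjusted p = 2.46e-05) and the leukotriene C4 synthase gene Ltc4s at 0.104, 0 and 0 and 288, 256 and 264 (log2 difference 8.03, adjusted p = 1.27e-05). Pla2g7, which degrades platelet-activating factor, was the clear astrocyte member, at 374, 594 and 359 FPKM and 14.7, 8.84 and 5.54 in microglia (log2 difference −5.42, adjusted p = 0.000118). Of 44 lysosomal genes 24 were higher in microglia and 4 in astrocytes, the latter 2 without astrocyte library 3 or microglia library 2 or 3, and the list took 3.27 to 3.77% of protein-coding nuclear FPKM in microglia and 0.681 to 0.732% in astrocytes. Ctsd was among the highest in microglia. Psap, the precursor of the saposins, did not pass the test (559, 683 and 462 and 792, 848 and 647 FPKM, adjusted p = 0.192), and Smpd1, acid sphingomyelinase, was higher in astrocytes (−2.34).

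Antigen presentation genes were higher in microglia for 15 of 23 tested and in astrocytes for none. H2-K1 and H2-D1 of MHC class I stood at 38.4, 6.48 and 17.3 and 7.33, 11.2 and 5.96 FPKM in astrocytes and 202, 180.5 and 197 and 102, 106 and 85.9 in microglia, and the costimulatory gene Cd86 at 0.151, 0.201 and 0 and 72.1, 97.8 and 74.8. Related MHC genes can share reads, so the class I values are uncertain. Of 16 interferon response genes 9 were higher in microglia, among them Bst2 (3.82) and Trim30a (3.99), while Ifitm3 overlapped between the groups (10.7, 43.5 and 24 and 101, 24.9 and 28 FPKM).

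Of 33 cell cycle genes 22 were higher in microglia and 1 in astrocytes, and the first count was 14 without microglia library 2. Pcna, the replication clamp, stood at 18.7, 20.8 and 23.2 FPKM in astrocytes and 58, 98.1 and 78 in microglia (log2 difference 1.82, adjusted p = 0.0021). The cyclin D genes were split, Ccnd2 at 19.9, 35.3 and 40.5 and 0.366, 0.212 and 0.899 FPKM (log2 difference −4.43, adjusted p = 0.000203) and Ccnd1 at 3.54, 5.87 and 13.4 and 45.4, 37.7 and 20.7 (log2 difference 2.15, adjusted p = 0.0147). The call of Ccnd1 was lost without microglia library 1 (1.92, adjusted p = 0.0644) or 2 (2.05, adjusted p = 0.0696).

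Immediate-early genes, which the enzymatic or mechanical isolation of cells can also induce, were higher in microglia for 25 of 30 tested and in astrocytes for none (median 4.54). Zfp36, which destabilises cytokine mRNA, stood at 8.76, 12.6 and 10.4 FPKM in astrocytes and 2309, 1825 and 2737 in microglia (log2 difference 7.62, SE 0.25, adjusted p = 1.45e-05), Egr1 at 1.22, 4.2 and 5.41 and 652, 551 and 811 (log2 difference 7.3, SE 0.43, adjusted p = 5.92e-05), Dusp1 at 30.4, 26.8 and 18.6 and 868, 490.5 and 628 and Jun at 15.6, 28.6 and 21.1 and 478, 484 and 585. The chaperone gene Hspa8 did not pass the test (322, 368 and 346 and 275, 250.4 and 245 FPKM, adjusted p = 0.117). The list summed to 5475 to 7218 FPKM in microglia and 583 to 693 in astrocytes. Its part in the levels of Ccl3, Ccl4, Tnf and Il1a given above was not tested.

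Markers of other cells moved with the cell type for some lists only. Of 5 tested erythroid markers none was called. All 11 border macrophage markers that passed the filter, of 12 listed, were higher in microglia libraries, and the 12 summed to 1762, 1028 and 852 FPKM in microglia libraries 1 to 3 and to 2.02 to 8.71 in astrocytes. Most of these markers were near 0 in astrocytes and passed the filter only through microglia. Their direction was thus set in advance, as for most of the neutrophil markers below. Stab1, which is also an engulfment gene, held 1082, 587 and 621 FPKM of the microglia sums. Among the other markers Mrc1 stood at 80.4, 68.3 and 34.8 FPKM in microglia, Lyve1 at 94.8, 50.1 and 19 and Pf4 at 261, 169 and 105. Neutrophil markers, 7 of 10 tested higher in microglia, summed to 356 to 585 FPKM there and 0.657 to 2.17 in astrocytes. Csf3r, also found in microglia, made up 218, 216 and 343 FPKM of these sums, and S100a8, listed at 0 in astrocytes, 118, 72.3 and 124. Monocyte markers summed to 20.5 to 116 FPKM in microglia and 24.3 to 85.1 in astrocytes, with overlap, and 2 of 7 were higher in microglia, 1 when any astrocyte library was left out and 0 after quantile normalisation or with a filter at 5 FPKM. Their part in the microglial lists was not tested.

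Myelin genes were found in both sorts. Of 12 markers of myelinating oligodendrocytes 11 were higher in astrocyte libraries, and the list summed to 4665 to 6434 FPKM there and 1084 to 1834 in microglia. Mbp, a myelin protein gene, stood at 4058, 3944 and 2654 FPKM in astrocytes and 1461, 1126 and 829 in microglia (log2 difference −1.65, adjusted p = 0.00626). Precursor markers were higher in astrocytes for 2 of 8, Olig1 (−4.91) and Cspg5 (−4.01), both of which astrocytes can express. Of 9 neuron markers 1 was called, Stmn2, a count of 4 without microglia library 1 and of 0 without astrocyte library 1 or 2 or microglia library 2 or 3, and the list summed to 49.7 to 126 FPKM in astrocytes and 19.4 to 73.3 in microglia. Endothelial and mural markers summed to 51.1 to 103 FPKM in astrocytes and 26.6 to 43.4 in microglia, with 6 of 13 higher in astrocytes, a count that was 2 without astrocyte library 1 and 3 without astrocyte library 2 or microglia library 2. Fibroblast markers summed to 396 to 707 FPKM in astrocytes, mostly Igfbp2 (309, 292 and 505), which astrocytes also express. The part of these cells in the astrocyte lists was not tested.

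RNA classes differed in their split. Of protein-coding genes 21.7% were higher in microglia and 25.1% in astrocytes. Of lincRNA genes 57.1% and 8.86% were, of antisense genes 41% and 10.2%, of processed pseudogenes 39.6% and 3.84%, of miRNA precursor genes 33.1% and 1.95% and of snoRNA genes 30.5% and 0.796%. Over all kept genes, 1626 were listed at 0 in all 3 astrocyte libraries and 138 in all 3 microglia libraries. Such genes passed the filter only through the other cell type, which sets their direction, and their share per class is not given. The shares are for the main scaling, not for the quantile normalisation that turned the split over all genes. The relative depth estimated above was lower for the astrocyte libraries, and the part of depth in this split was not tested.

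The comparison repeated in the KO libraries, which share no sample with the WT ones, called 5418 genes (33.6%) higher in microglia and 4287 (26.6%) higher in astrocytes. Of the WT calls 3604 toward microglia were among them, 88.7% of the WT and 66.5% of the KO calls, and 3039 toward astrocytes, 91.2% and 70.9%. In each direction 1 WT call met an opposite KO call, Raph1 (WT 2.39, KO −1.04) and 2610307P16Rik (WT −1.9, KO 1.97), named after their values were seen. Il33, the targeted gene, differed by −6.22 between the WT cell types and by −1.09 between the KO cell types, with WT astrocytes at 106 FPKM on average and KO astrocytes at 1.37.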

How the data were processed

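RNA of sorted spinal cord cells was made into libraries from total RNA with NuGEN RNA-Seq V2, per the labels' protocols. The submitters' processing notes name Cufflinks and Cuffnorm, which produce FPKM, the aligner TopHat2 2.0.11 with Bowtie2 2.2.3, and also HTSeq 0.6.1p1, FastQC and DESeq2, on the build GRCm38, without saying which made this table. The values used are FPKM per gene and library as the authors deposited them; the scaling between libraries and the strand setting of the counting are not stated in the labels or notes. Read counts were not analysed here, so depth is only estimated relative to 1 library and no counting intervals are given.

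Genes with a mean of at least 1 FPKM over the 6 WT libraries were tested on log2(FPKM + 1) with limma 3.58.1 in R 4.3.3 (lmFit, eBayes with a trend, two-sided), with Benjamini-Hochberg adjustment over all 16128 genes and a threshold of 0.05. The KO libraries were fitted in the same way on the same genes. The script was tested on simulated data. A fold on this scale understates the change of low genes, so ratios of mean FPKM are also given. An exact permutation test of 3 against 3 libraries cannot go below p = 0.1. p-values measure the spread between these libraries.

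Positions and gene classes come from the GRCm38 annotation, in which 37605 of the 39171 genes (96%) were found. Named genes are the 12 largest protein-coding differences in each direction with a mean of at least 10 FPKM and no overlap, the 8 most abundant per cell type, up to 5 of the highest members of each of 56 lists with up to 3 called the other way, and members of oppositely called pairs. The members, lists and pairs were chosen with earlier results of these data known. Alternatives were the pseudocount (0.1), filters (none, 5 FPKM), 3 scalings, robust eBayes, each library left out, age, the replicate block and, added after seeing the data, lone zeros as missing. In a left-out fit the spread is pooled over the remaining libraries. A few genes that met this rule are not reported here.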

Additional observations from a re-analysis of the deposited data

Results flagged for a closer look

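Il33 was marked because its difference between the cell types was not the same in WT and KO mice. Microglia minus astrocytes it was −6.22 on the log2(FPKM + 1) scale in WT and −1.09 in KO libraries, an interaction of −5.1 (limma, adjusted p = 0.00442). WT astrocytes stood at 96.3, 113 and 108 FPKM and KO astrocytes at 2.28, 2.05, 0.424 and 0.733, below every WT astrocyte library. It is the gene that the KO targets, so the contrast checks the labels.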

How the results depend on the processing

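Among the counts of calls over all genes, the number higher in KO microglia moved by more than 1.5 times in one alternative, to 3535 with a filter at 5 FPKM, where 10554 genes were tested. Leaving out 1 library at a time gave 3415 to 3771 genes higher in WT microglia, 2668 to 3024 higher in WT astrocytes, 4688 to 5323 higher in KO microglia and 3687 to 4225 higher in KO astrocytes. Without the day 9 astrocyte library the WT counts were 3617 and 2876, and with age as a covariate 3548 and 2880. With lone zeros taken as missing they were 4245 and 3396. Of 286 named genes with a call, 255 kept it under every alternative run for them, 16 or 17 each.

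Deviations from the group mean of WT libraries with the same replicate number had correlations of −0.0101, −0.0029 and −0.0069. With different numbers they ran from −0.016 to 0.0241. Values near 0 for every combination cannot tell whether the replicate numbers pair the samples. With the replicate number as a block the counts were 3355 and 2761 in WT and 4677 and 3662 in KO libraries.

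The relative depth of the astrocyte libraries was 40.3% to 65.1% of the deepest microglia library, and its effect on low values was not measured.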

Other observations

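Besides Il33, 8 of the 16128 genes differed between WT and KO mice in their cell type difference (limma interaction, adjusted p under 0.05), chosen here after their values were seen. The protein-coding one, Filip1l, had a mean of 19.5 FPKM in WT microglia, was listed at 0 in WT astrocytes and had a KO difference of −0.09 (interaction 4.44, adjusted p = 0.000404). Snord107, a small nucleolar RNA gene, had an interaction of 5.85 (adjusted p = 1.06e-05) and was listed at 0 in the 3 WT astrocyte libraries. The other 6 were 4 miRNA gene models and 2 identifiers with no match in the annotation. All 8 but the miRNA model Gm25025 were listed at 0 in the WT astrocytes. Snord107 and the miRNA models Gm23018, Gm23424 and Gm27317 had a KO difference of exactly 0. An exact 0 can be a failed estimate, and its part in these differences was not tested. The interaction fit took all 13 libraries with age as a covariate. Genes entered it only with a mean of at least 1 FPKM over the 6 WT libraries. A gene high in WT microglia alone could thus enter, while a gene high in KO libraries alone could not.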
